A study of Mus musculus with 4 samples.

Results

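The suppressor of cytokine signalling (SOCS) family has 8 genes, Socs1 to Socs7 and Cish, and all 8 were measured in thymocytes of mice with an induced deletion of the transcription factor Ikaros and of control mice. The members were taken by symbol from the probe sets to which the platform annotation gives exactly 1 gene symbol. This gave 8 of 19938 genes and 12 of 21789 probe sets, since Socs2 and Socs3 have 2 each and Socs6 has 3. The family was proposed with the Cre+ against Cre- differences of Socs2 and Socs3 already known. Its values in that contrast are therefore a description, with no test.

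The cells were DN4 thymocytes, the last stage before CD4 and CD8 appear, sorted from 4 mice. The 2 Cre+ mice (129 and 135) were Ikf/f Rosa26-CreERT2+, that is, both alleles of the Ikaros gene Ikzf1 were flanked by loxP sites and a tamoxifen-activated Cre recombinase was expressed from the ubiquitous Rosa26 locus. The 2 Cre- mice (131 and 137) were Ikf/f without that recombinase. The treatment protocol names the Cre+ genotype for all 4 samples, so the groups were taken from the sample titles and the series' design text. Both groups were injected with tamoxifen on each of 4 days (50 mg/kg), and cells were taken 24 h after the final dose. Loss of Ikaros and the presence of an active Cre recombinase cannot be told apart in this design, and Cre from Rosa26 is not restricted to thymocytes. The sources used here do not give the ages of the mice.

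SOCS proteins are feedback inhibitors of cytokine receptors. A cytokine activates Janus kinases (JAKs) on its receptor, the kinases phosphorylate STAT transcription factors, and STATs switch on some of the SOCS genes. Each SOCS protein binds phosphotyrosine through an SH2 domain and recruits a ubiquitin ligase through its SOCS box, and SOCS1 and SOCS3 also block the kinases directly. In the thymus SOCS1 restrains interleukin-7 and interferon signals.

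STATs can act on a gene through binding sites near its start, so matches to the STAT motif are shown here. RefSeq promoter windows (GRCm38.p6, 250 bases before to 50 after the start) matched 4 of the 8 members, namely Cish, Socs1, Socs3 and Socs4. The unmatched members were Socs2, Socs5, Socs6 and Socs7. The STAT motif TTCNNNGAA, which is its own reverse complement, occurred 2 times in the Cish window, 1 time in that of Socs3 and 0 times in those of Socs1 and Socs4, and 8.3% of all 32851 windows hold it. The core letters bound by Ikaros, GGGAA on either strand, were in all 4 windows and in 62.7% of all windows. The matches of the 2 motifs overlapped 0 times in these windows. The stretches with the STAT motif, in capitals, are at chr9:107296654-107296683 on the plus strand for Cish and at chr11:117969501-117969530 on the minus strand for Socs3, and read 5′ to 3′:
Cish: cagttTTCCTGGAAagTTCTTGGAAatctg
Socs3: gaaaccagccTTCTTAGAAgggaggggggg
A match is a description of the letters and not evidence of binding in these cells.

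Across the family, 1 of the 2 Socs2 probe sets stood well above the rest in the size of its difference. The other Socs2 probe set and 1 of the 2 Socs3 probe sets each differed by 0.44, and the other genes differed little. Values are log2 RMA values, the deposited expression measure, in which a difference of 1 is a doubling. Where 2 values are given per group, mice 129 and 135 come in that order for Cre+ cells and mice 131 and 137 for Cre- cells. Each difference is Cre+ minus Cre- with the moderated standard error (SE) of limma, fitted over all 35556 probe sets. Of the 12 probe sets, 11 had a higher mean in Cre+ cells, where 45.9% of all probe sets with 1 symbol did. In 4 of the 12 both Cre+ mice lay above both Cre- mice, which was so for 16.0% of probe sets with 1 symbol, and in 0 both lay below, against 20.2%. With limma, 0 of 12 passed an adjusted p of 0.05 in the whole table, as did 0.00% of all probe sets, and 3 had an unadjusted p under 0.05, against 6.63% of all. Among probe sets with 1 symbol only, 0 of 12 and 1.22% of all passed. Nothing is read from these counts, since the family was chosen on this contrast. With 2 against 2 mice, a two-sided exact permutation test could not go below p = 0.333.

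**Figure D1:**
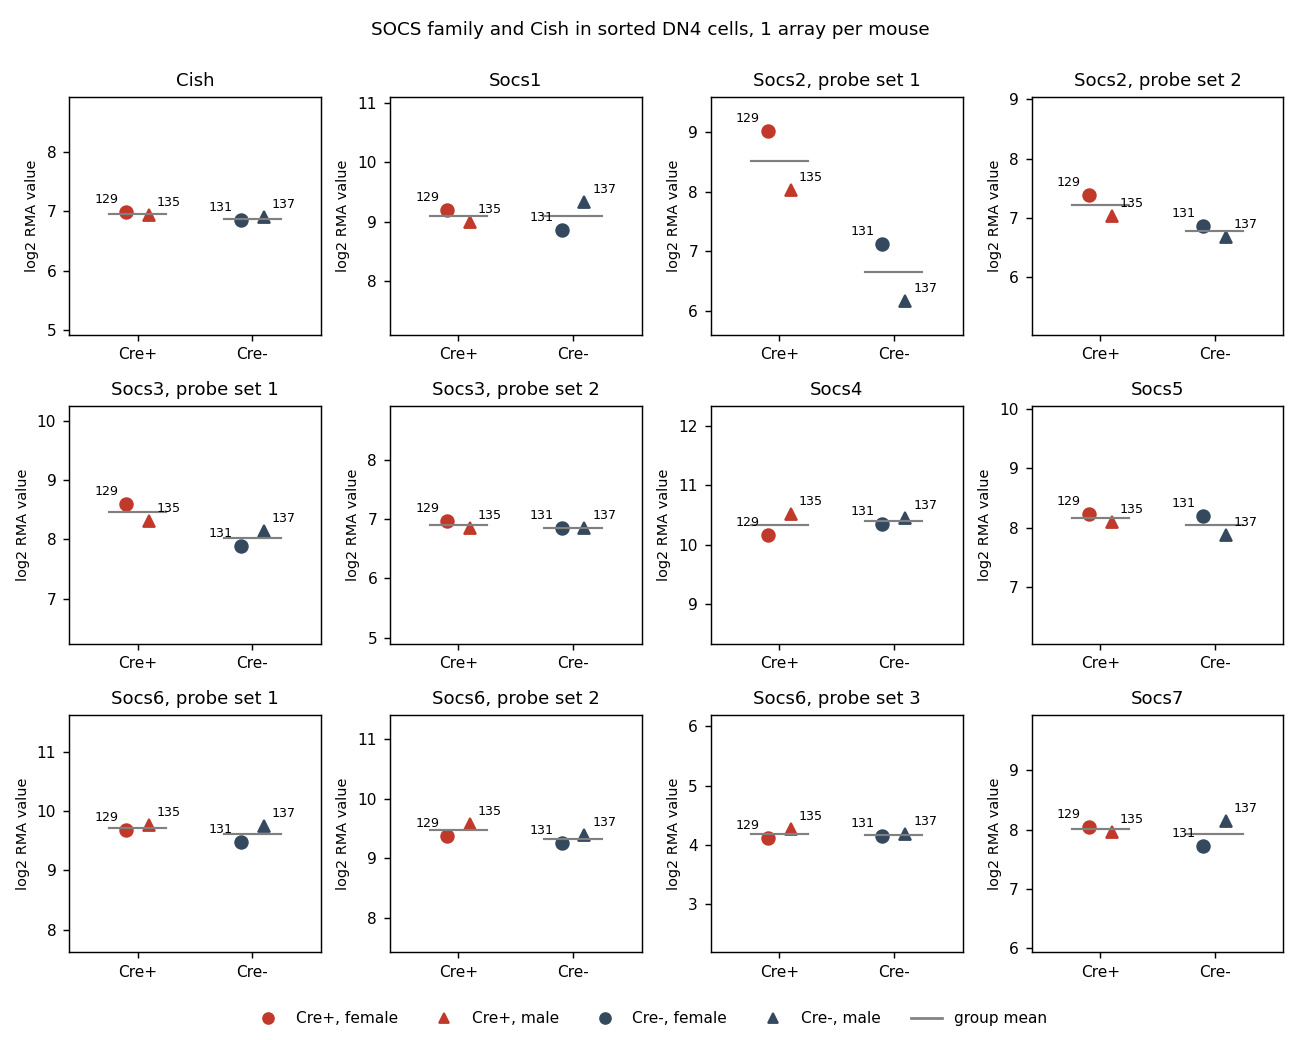
Log2 RMA value (vertical axis, the same span in every panel) of the 12 probe sets in each mouse, Cre+ on the left and Cre- on the right of each panel, with circles for female mice, triangles for male mice and a line at the group mean. Probe set 1 of Socs2 spreads from 9.02 in mouse 129 to 6.16 in mouse 137, while Cish and Socs4 to Socs7 stay close together.

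Socs2 encodes the family member best known as the brake on growth hormone receptor signalling, and it is a STAT5 target. Its probe set with the higher mean (10394674) read 9.02 and 8.03 in Cre+ cells, against 7.13 and 6.16 in Cre- cells. The groups did not overlap, and both Cre+ mice lay above both Cre- mice by 0.90 or more. The difference was 1.88 (SE 0.45), or 3.69-fold, and lay between 1.39 and 2.38 with 1 mouse left out. In sorted bulk cells, more cells that express a gene and more RNA per cell cannot be told apart. Its other probe set (10372069) read 7.38 and 7.04 in Cre+ cells, against 6.87 and 6.68 in Cre- cells. These groups did not overlap either, but the difference was 0.44 (SE 0.15), or 1.36-fold, and lay between 0.27 and 0.61 with 1 mouse left out.

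The 2 Socs2 probe sets thus agreed in direction and in the order of all 4 mice, and disagreed in size by 1.44 on the log2 scale. They share 4 accessions in the annotation, of 7 listed for the first and 5 for the second. Where their probes lie in the gene was not analysed here, so which of them measures the whole transcript was not tested. Both are above the median signal of all probe sets (6.85) when averaged over the arrays, although the first was at 6.16 in mouse 137 and the second at 6.68.

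The mice of 1 group differed more in the first Socs2 probe set than in any other probe set of the family. Its SD within groups was 0.691, higher than in 99.7% of all probe sets, against 0.0341 to 0.251 in the other 11 probe sets of the family. The spread went with the sex of the mice, which was read from Xist, the RNA that coats the silenced X chromosome in females (12.5 in Cre+ mouse 129 and 12.3 in Cre- mouse 131, against 5.29 in Cre+ mouse 135 and 4.93 in Cre- mouse 137). Each group therefore held 1 female and 1 male. The female was above the male by 0.99 in the Cre+ group and by 0.96 in the Cre- group. The female pair gave a Cre+ minus Cre- difference of 1.90 and the male pair 1.87. With sex as a block the difference stayed at 1.88 and its SE was 0.10, and Socs2 still did not pass when adjusted over the whole table. That fit leaves few residual degrees of freedom, so its SE rests largely on the spread shared over all probe sets. The SE of Cish in the same fit was also 0.10, so the smaller SE is not a measured precision of Socs2. The second probe set gave 0.52 in the female pair and 0.36 in the male pair. With 1 mouse of each sex per group, sex cannot be told apart from any other difference between those mice.

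The nearest genes on either side of Socs2 in the RefSeq gene table did not share its higher mean in Cre+ cells. Cradd, which encodes an adaptor of cell death signalling, differed by -0.06 (SE 0.10), and Mrpl42, a mitochondrial ribosomal protein gene, by -0.13 (SE 0.07). Neither passed in limma, with an adjusted p = 1 for Cradd and an adjusted p = 0.893 for Mrpl42.

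The 5 genes whose pattern over the 4 arrays was most like that of the first Socs2 probe set were taken by Euclidean distance after the mean of each probe set was subtracted. They were Oasl2 (distance 0.45), Ifit1 (0.53), Scn4b (0.67), Iigp1 (0.73) and Ifitm2 (0.74). Oasl2 read 10.76 and 9.24 in Cre+ cells, against 8.30 and 7.43 in Cre- cells. Scn4b, a sodium channel subunit gene, read 8.38 and 8.02 in Cre+ cells, against 7.12 and 6.42 in Cre- cells. The second Socs2 probe set came at rank 196 in the same ordering. With 4 arrays such a likeness is a description only.

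**Figure D2:**
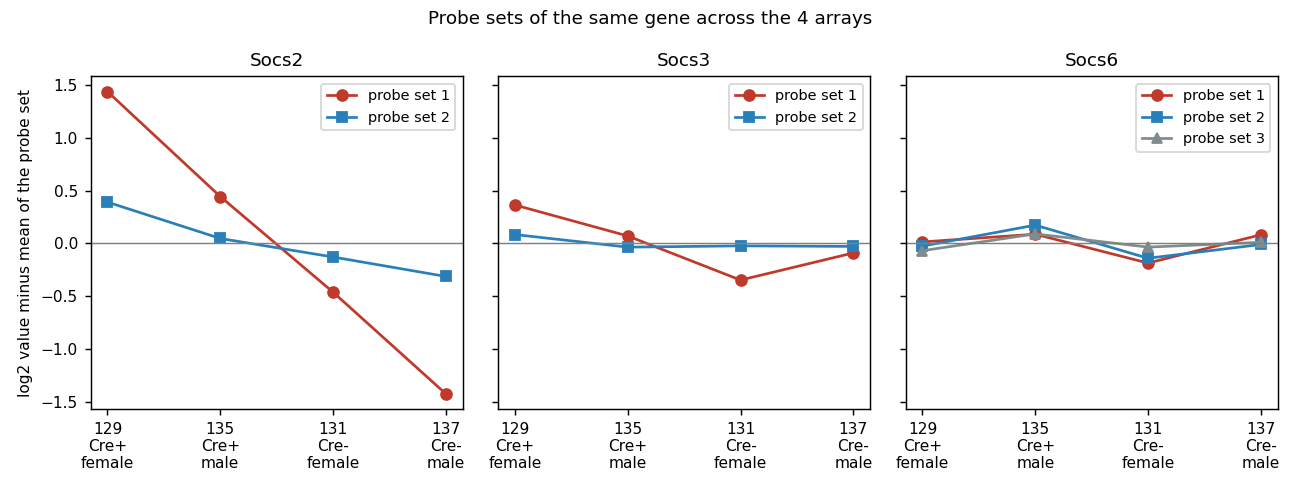
Log2 value minus the mean of the probe set (vertical axis) for each probe set of Socs2, Socs3 and Socs6 in the 4 mice, Cre+ mice first; lines join the values of 1 probe set and imply no order of the mice. The Socs2 probe sets run in parallel order but differ in span, and the second Socs3 probe set is nearly flat.

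Socs3 encodes the inhibitor of receptors that signal through gp130 and STAT3. Its probe set with the higher mean (10393449) read 8.60 and 8.31 in Cre+ cells, against 7.89 and 8.15 in Cre- cells. The groups did not overlap, with 0.16 between the lower Cre+ mouse and the higher Cre- mouse. The difference was 0.44 (SE 0.15), or 1.35-fold. It was 0.71 in the female pair and 0.16 in the male pair, and lay between 0.29 without Cre+ mouse 129 and 0.58 without Cre+ mouse 135.

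The second Socs3 probe set (10383010) read 6.96 and 6.84 in Cre+ cells, against 6.86 and 6.85 in Cre- cells. The groups overlapped, and the difference was 0.05 (SE 0.10). The probe sets of Socs3 share 0 accessions, with 3 listed for the first and 1 for the second. They therefore did not agree on a difference, and which of them is the better measure was not tested. The Socs3 window above holds 1 STAT motif.

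Cish and Socs1 are, with Socs2 and Socs3, the members most often described as induced by cytokines. Cish, which encodes CIS, a STAT5-induced inhibitor in T cells, read 6.98 and 6.93 in Cre+ cells, against 6.85 and 6.90 in Cre- cells. The groups were separate by 0.03 only, and the difference was 0.08 (SE 0.10). It had the 2 STAT motifs shown above. Its neighbours Mapkapk3 and Hemk1 differed by -0.06 each (SE 0.09 and 0.10), with an adjusted p = 1 from limma for both.

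Socs1, the inhibitor of interferon and interleukin-7 signalling, read 9.20 and 8.995 in Cre+ cells, against 8.87 and 9.32 in Cre- cells. The 2 Cre- mice were the lowest and the highest of the 4, so the groups overlapped. The difference was 0.00 (SE 0.18). It was -0.22 without Cre- mouse 131 and 0.23 without Cre- mouse 137, so its direction is not settled by these mice.

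The other members act on growth factor and insulin signalling as well as on cytokine receptors, and their groups overlapped in all 6 probe sets. Socs4, tied to the epidermal growth factor receptor, read 10.16 and 10.51 in Cre+ cells, against 10.34 and 10.45 in Cre- cells. Its difference, -0.06 (SE 0.13), was the 1 negative value in the family. Socs5, which acts on the same receptor and on interleukin-4 signalling, read 8.22 and 8.10 in Cre+ cells, against 8.20 and 7.87 in Cre- cells (difference 0.13, SE 0.14).

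Socs6 and Socs7 bind insulin receptor substrates and related receptors. Socs7 read 8.05 and 7.96 in Cre+ cells, against 7.72 and 8.15 in Cre- cells, with a difference of 0.07 (SE 0.17). The first Socs6 probe set read 9.69 and 9.76 in Cre+ cells, against 9.49 and 9.75 in Cre- cells, with a difference of 0.10 (SE 0.11). The second read 9.37 and 9.57 in Cre+ cells, against 9.26 and 9.39 in Cre- cells, with a difference of 0.15 (SE 0.10). These probe sets list the same 5 accessions. The third, which lists another accession, lay between 4.12 and 4.27 on all arrays, under the 25th percentile of probe sets (5.41), and differed by 0.02 (SE 0.08). It was the 1 of 12 probe sets below a filter at the 25th percentile or at the median.

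**Figure D3:**
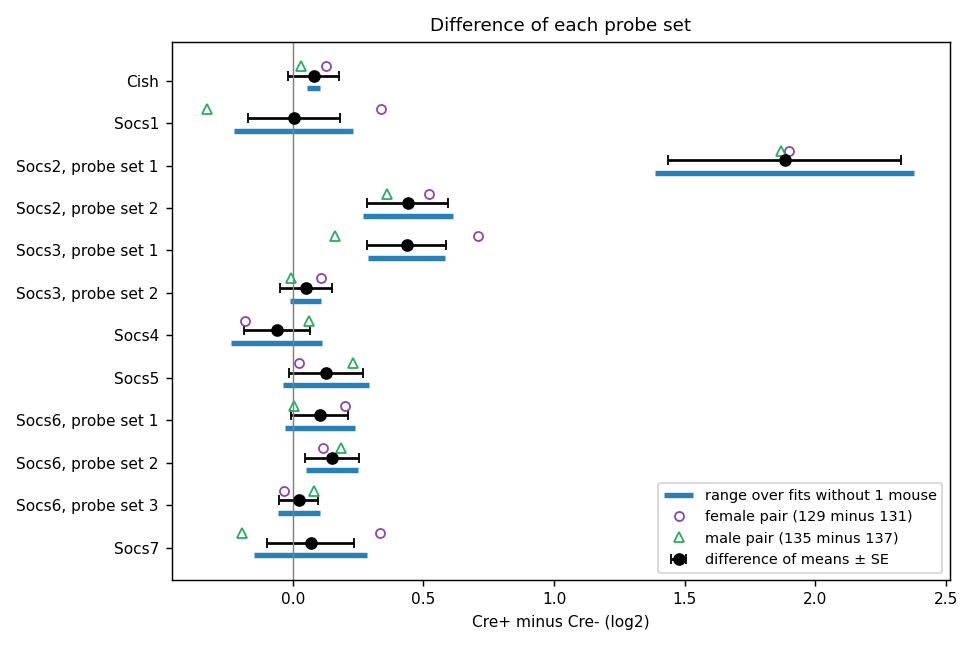
Cre+ minus Cre- difference on the log2 scale (horizontal axis) of the 12 probe sets. Filled points with bars are the difference of group means ± limma's SE, open symbols are the female and the male pair, and thick bars span the differences with 1 mouse left out. Both Socs2 probe sets and the first of Socs3 stay above 0.2 in every such fit, and 7 of the 12 probe sets cross 0.

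Differences outside Socs2 and the first Socs3 probe set were small, with a size of at most 0.15 in the other 9. The median over the 8 genes, each by its probe set with the higher mean, was 0.09, against -0.01 over all probe sets. This median was 0.01 without Cre- mouse 131 and 0.23 without Cre- mouse 137. Mouse 131 was the lowest of the 4 in 6 of the 12 probe sets and the highest in 0. Leaving out 1 mouse at a time kept the sign of the difference in 5 of 12, which were both Socs2 probe sets, the first of Socs3, the second of Socs6 and Cish.

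Genes that act with the SOCS proteins were compared in the same fit as 8 lists, in which 100 of 103 genes had a probe set with 1 symbol. Of these, 49 had a higher and 51 a lower mean in Cre+ cells, with a median difference of -0.00085. With limma 0 passed when adjusted over the whole table, while 15 of the 100 had an unadjusted p under 0.05, against 6.63% of all probe sets. In the test limited to probe sets with 1 symbol 3 genes passed, namely Il6st, Il12rb1 and Il12rb2. That test called 266 probe sets in all, the 1.22% given above. It also estimates the spread anew from those probe sets, with 6.12 prior degrees of freedom against 2.99 in the whole table, so its p-values differ before adjustment.

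Cytokine receptor chains, where the signal starts, had lower means in 18 of 28 cases, with a median of -0.08. The groups did not overlap in 12 lower and 3 higher genes, against 20.2% and 16.0% of all probe sets with 1 symbol. Il12rb1, a subunit of the interleukin-12 and interleukin-23 receptors, read 8.15 and 7.86 in Cre+ cells, against 8.61 and 8.87 in Cre- cells, and differed by -0.73 (SE 0.15). Its partner in the interleukin-12 receptor, Il12rb2, differed by -0.49 (SE 0.08). Il6st encodes gp130, the receptor chain that SOCS3 binds, and read 10.09 and 10.07 in Cre+ cells, against 9.52 and 9.69 in Cre- cells, and differed by 0.47 (SE 0.08). Limma's adjusted p was 0.387 for Il12rb1, 0.321 for Il12rb2 and 0.327 for Il6st over all probe sets. Among probe sets with 1 symbol the adjusted p was 0.0420 for Il12rb1, 0.0269 for Il12rb2 and 0.0361 for Il6st.

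The kinases differed little, while the listed STAT genes differed by -0.17 to 0.21. The JAK genes Jak1, Jak2 and Tyk2 differed by -0.04, 0.03 and -0.04 (SE 0.05, 0.10 and 0.10), and their groups overlapped. Among the 6 listed STAT genes the groups did not overlap in 3 higher and 1 lower, against 16.0% and 20.2% of all probe sets with 1 symbol. In limma 2 of the 6, Stat3 and Stat4, had an unadjusted p under 0.05, against 6.63% of all probe sets. Stat3 read 10.41 and 10.43 in Cre+ cells, against 10.18 and 10.23 in Cre- cells, and differed by 0.21 (SE 0.06). Stat4, which transmits the interleukin-12 signal, differed by -0.17 (SE 0.07) and Stat5b by 0.10 (SE 0.05). None of the 9 measured kinase and STAT genes passed in limma, with an adjusted p for Stat3 of 0.530 over all probe sets and 0.218 among those with 1 symbol.

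The lists of partners and relatives of the SOCS proteins had medians near 0. The 8 genes listed for the SOCS box ubiquitin ligases had a median of -0.03, from -0.17 for the cullin gene Cul2 to 0.05 for Ube2f. They include Ube2f and Nedd8, which do not encode subunits of the ligase. In limma 0 of the 8 reached an unadjusted p of 0.05. Elob, the elongin B gene, differed by 0.03 (SE 0.03) and Rbx1, a RING subunit gene, by -0.08 (SE 0.05). The 26 other genes of proteins with a SOCS box had a median of -0.01, and in limma 1 of them, Spsb2, reached an unadjusted p of 0.05. Spsb2, whose product directs inducible nitric oxide synthase to degradation, differed by 0.38 (SE 0.10), Asb13 by 0.14 (SE 0.07) and Asb17 by -0.15 (SE 0.08). Of 12 other inhibitors of the pathway, 6 had higher and 6 lower means, with a median of 0.001. The groups did not overlap in 2 higher and 3 lower genes, against 16.0% and 20.2% of all probe sets with 1 symbol. In limma 2 of the 12, Ptprc and Ptpn2, had an unadjusted p under 0.05, against 6.63% of all probe sets. The tyrosine phosphatase genes Ptprc, Ptpn2 and Ptpn11 differed by -0.16, -0.14 and 0.16 (SE 0.05, 0.05 and 0.07).

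Other genes under STAT control were listed by the factor that acts on them, whether it raises or lowers them. A count of higher means in these lists therefore gives no direction of STAT activity. STAT5 targets had higher means in 9 of 12 cases, with a median of 0.13, where 45.9% of all probe sets with 1 symbol had a higher mean. Bcl6, a transcriptional repressor gene of lymphocytes, read 8.01 and 8.12 in Cre+ cells, against 7.53 and 7.74 in Cre- cells, and differed by 0.43 (SE 0.12). Il2ra differed by -0.38 (SE 0.23) and the cyclin gene Ccnd2 by 0.13 (SE 0.07). STAT3 targets had higher means in 6 of 8 cases, with a median of 0.24. The 3 with the smallest p were Il6st and Stat3, given above, and Tnfaip3, an inhibitor of NF-kappaB signalling (0.27, SE 0.10). Adjusted over all probe sets, 0 genes of these lists passed in limma, with an unadjusted p under 0.05 for 1 of 12 STAT5 targets and 3 of 8 STAT3 targets, against 6.63% of all probe sets. Of these lists, only Il6st passed among probe sets with 1 symbol.

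**Figure D4:**
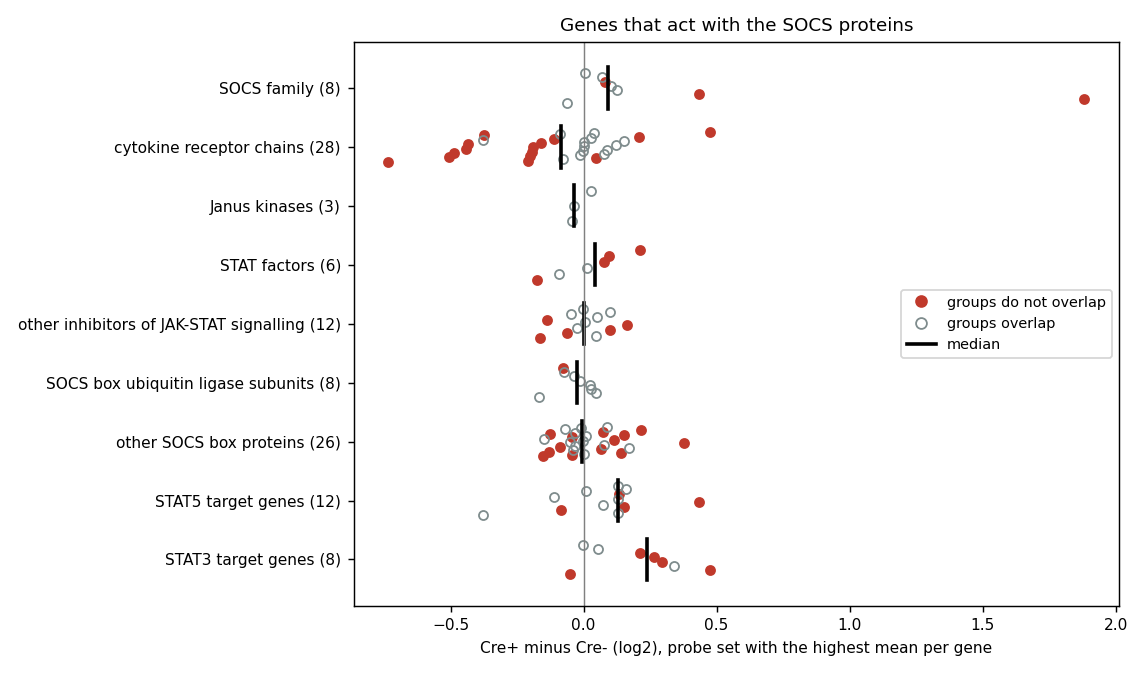
Cre+ minus Cre- difference on the log2 scale (horizontal axis) of each gene, by its probe set with the highest mean, in the SOCS family and the 8 lists, with the number of measured genes in brackets. Filled points are genes whose groups do not overlap, open points those whose groups overlap, and black bars are medians; Socs2 at 1.88 lies farthest from 0, and Il12rb1 at -0.73 is the lowest.

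The arrays as a whole were alike, with log2 medians of 6.85 to 6.88. Ikzf1 read 12.06 and 11.99 in Cre+ cells, against 12.07 and 12.11 in Cre- cells. Whether its probes lie in the deleted part was not analysed here, so this checks nothing. The loss of Ikaros protein in the Cre+ cells was shown by western blot, per the series' design text. All 9 measured T lineage markers were above the median signal, with a list mean of 11.7 in both Cre+ mice and 11.5 in both Cre- mice. In 4 of them both Cre+ mice lay above both Cre- mice, against 16.0% of all probe sets with 1 symbol. These 4 were Cd3d (0.66, SE 0.08), Cd3g (0.37, SE 0.05), Ptcra (0.33, SE 0.07) and Cd3e (0.25, SE 0.04). The other 5 differed by -0.10 to 0.05. In 1 of these, Cd247 (-0.10, SE 0.06), both Cre+ mice lay below both Cre- mice, against 20.2% of all probe sets with 1 symbol. Il2ra, whose protein leaves the surface before the DN4 stage, read 11.07 and 10.71 in Cre+ cells, against 11.58 and 10.96 in Cre- cells, so its transcript was not absent. Cd44, also lost by this stage, read 5.96 and 5.90 in Cre+ cells, against 6.40 and 6.31 in Cre- cells. Transcripts of the coreceptors that define the next stage were present as well, and differed in opposite directions without overlap. Cd4 read 7.88 and 7.94 in Cre+ cells, against 7.26 and 7.47 in Cre- cells. Cd8a differed by -0.61 (SE 0.21) and Cd8b1 by -0.27 (SE 0.08). The means of the B lineage, myeloid, dendritic, natural killer, gamma-delta T cell, erythroid and thymic epithelial lists lay between 5.83 and 6.89 in the Cre+ mice and between 5.59 and 7.02 in the Cre- mice. A list mean hides single genes, and the erythroid list had 1 measured gene. The gamma-delta T cell and thymic epithelial lists each had 2 markers above the median signal. The B lineage, myeloid, dendritic and natural killer lists each had 1. Of their 28 measured markers, 4 were higher and 8 lower in Cre+ cells without overlap, against 16.0% and 20.2% of all probe sets with 1 symbol. Among them, Blk differed by -0.51 (SE 0.09), Epcam by -0.48 (SE 0.15), Cd79a by -0.35 (SE 0.12) and Cd79b by 0.25 (SE 0.09). The rest of the gamma-delta T cell list, Sox13, Il23r and Zbtb16, differed by -0.02, 0.09 and -0.16. The rest of the thymic epithelial list, Krt5, Krt8 and Foxn1, differed by -0.09, 0.13 and -0.005. In the B lineage list Ms4a1 differed by -0.42 and Pax5 by -0.19, so only Cd79b had a higher mean in Cre+ cells. The signal of Cd79b was high, at 10.34 and 10.15 in Cre+ cells, against 10.04 and 9.96 in Cre- cells. Gzma, a granzyme gene of cytotoxic cells, was high in both groups, at 12.31 and 12.25 in Cre+ cells, against 12.48 and 12.46 in Cre- cells. Lyz2, the lysozyme gene of myeloid cells, read 7.56 and 7.59 in Cre+ cells, against 6.79 and 6.29 in Cre- cells. The other 5 myeloid markers, Csf1r, Itgam, Adgre1, S100a8 and Mpo, differed by -0.05 to 0.04. RMA values are never 0, so a marker at 0 cannot be named, and the part of other cells in the Socs2 and Socs3 values was not tested.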

How the data were processed

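Sorted DN4 cells of each mouse gave 1 Affymetrix mouse gene array after biotin labelling of the amplified RNA, per the labels' protocols. The authors deposited 1 log2 value per probe set and array, computed by RMA according to the processing notes of the submitters. That the scale is log2 follows from the range of the values (3.14 to 14.4). No source used here gives the RMA version, filters or build. Unused sample columns numbered 0.

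Groups follow the Cre status in the sample titles (2 Cre+, 2 Cre-). The mice are separate animals, and no number pairs them across groups. The number of arrays limits the precision. The platform annotation gave 1 symbol to 21789 probe sets and several to 1621, and it did not list 12146.

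limma 3.58.1 in R 4.3.3 (lmFit, eBayes with an intensity trend) was fitted to all 35556 probe sets with Benjamini-Hochberg adjustment and a threshold of 0.05, with 2 residual and 2.99 prior degrees of freedom. It was also run on simulated data with the spread drawn from the same fit. That run cannot show whether the model suits these arrays. The members, lists and tests were chosen with earlier results of these data known. From each list the 3 genes with the smallest p were named, and others only where a result turned on them. A listed gene was represented by its probe set with the highest mean. Il2rg, Prlr and Jak3 had no probe set with 1 symbol and were not used here. A further list of pathway genes and some single genes are not reported here. Alternatives were other normalizations, filters and variance models, array weights, sex as a block and leaving out each mouse.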

Additional observations from a re-analysis of the deposited data

Results flagged for a closer look

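In 5 of the 12 probe sets the Cre+ minus Cre- difference had opposite signs in the female pair (mice 129 and 131) and the male pair (mice 135 and 137). With 1 pair of each sex the difference between the pairs was not tested. Socs1 differed by 0.34 in the female pair and by -0.33 in the male pair, and Socs7 by 0.33 and -0.19. Socs4 differed by -0.18 in the female pair and by 0.06 in the male pair. The second Socs3 probe set differed by 0.11 and -0.01, and the third Socs6 probe set by -0.034 and 0.08, in the female and the male pair.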

How the results depend on the processing

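No replicate number is shared by mice of the 2 groups in the labels, so the pairing fitted was sex as a block, read from the transcripts, with 1 female and 1 male mouse a group; the family median stayed at 0.09. The count of probe sets with an adjusted p under 0.05 in limma was 0 over all probe sets, and it was 10 after centring of each array, 25 among probe sets above the 25th percentile of mean signal, 80 among those above the median and 266 among those with 1 symbol. It was 0 in each of the other alternatives, and 0 without any 1 of the mice. Among the listed pathway genes 0 were called over all probe sets and 3 among those with 1 symbol, 1 higher and 2 lower. That fit tests fewer probe sets and also estimates the spread anew, with 6.12 prior degrees of freedom against 2.99 over all probe sets, and the unadjusted p of Il6st was 0.000338 in it against 0.00235. The members were called 0 times in any of these fits. The probe set with the lower mean gave 0.44 in place of 1.88 for Socs2 and 0.050 in place of 0.44 for Socs3; the cause was not tested. The family median ranged from 0.01 to 0.23 with 1 mouse left out. Other scalings and array weights moved the 12 differences by at most 0.024 and turned the sign of Socs1 only, which is near 0. Filters, variance models and the sex block leave a difference as it is by construction. Leaving out 1 mouse turned the sign in 8 of 48 values, none of them of Socs2, Cish, the first Socs3 or the second Socs6 probe set; with 2 mice a group such a move cannot exceed the SD within groups, so that comparison says nothing about stability. A group left with 1 mouse was assumed to vary like the other.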
